A study of Homo sapiens with 4 samples.

Results

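Interferon-stimulated genes and the receptors, transcription factors and RNA sensors that control them were examined in A375 cells treated with a medium-chain fatty acid. The members were 39 symbols of this pathway, looked up by name in a table of normalised read counts for 56832 genes and kept where the mean over the 4 libraries was at least 10. All 39 passed. A375 is an established human melanoma cell line, wild type per the labels and grown in DMEM with serum (FBS). Cells received 1 mM octanoate, a medium-chain saturated fatty acid, or its solvent isopropanol (vehicle) for 48 h, with 2 RNA libraries per group. The labels name no added interferon in either group. The stated purpose was to find upregulated genes and gene signatures.

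Interferons are secreted proteins that act through cell surface receptors and the JAK kinases. Type I interferons use IFNAR1 and IFNAR2 and type II interferon uses IFNGR1 and IFNGR2. Activated complexes that hold STAT2 and IRF9 bind a promoter element called the interferon-stimulated response element (ISRE), and a second element of interferon-induced promoters is the gamma-activated site (GAS). The genes induced in this way restrict viruses. Sensors of cytosolic RNA and DNA, some of them interferon-induced themselves, act upstream by switching on interferon production through IRF3 and IRF7.

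The promoters of the genes whose values matter most below are shown first, because the response element for interferon is common among these genes. RefSeq promoter windows (GRCh38.p14, 250 bases before to 50 after the start) matched 26 of the 39 members. The ISRE core was searched as GAAA, any 2 bases and GAAA, or on the other strand TTTC, any 2 bases and TTTC. GAS was searched as TTC, any 3 bases and GAA, which reads the same on both strands. Overlapping matches were each counted. At least 1 ISRE core lay in the windows of 17 of the 26 members (65.4%), against 1195 of all 27305 genes with a window (4.38%). A GAS match lay in 8 of the 26 (30.8%), against 2560 of the 27305 genes (9.38%). None of the 6 receptor, STAT or IRF genes with a window held an ISRE core, while 14 of the 15 effectors with one did.

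The 170 bases before the start are given for 8 members, 5′ to 3′ on the strand of the gene, with ISRE and GAS matches in capitals. ISG20 (chr15:88638846-88639015, plus strand) and OAS1 (chr12:112906792-112906961, plus strand) were higher under octanoate. IFIT1 (chr10:89392453-89392622, plus strand), IFIT3 (chr10:89327827-89327996, plus strand), IFITM3 (chr11:320861-321030, minus strand) and GBP1 (chr1:89065209-89065378, minus strand) were lower. IFIT5 (chr10:89414398-89414567, plus strand) and ISG15 (chr1:1013327-1013496, plus strand) did not pass the test.
ISG20: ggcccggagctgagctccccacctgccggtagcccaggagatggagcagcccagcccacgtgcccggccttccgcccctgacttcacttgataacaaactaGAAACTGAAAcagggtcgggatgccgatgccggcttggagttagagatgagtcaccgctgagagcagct
OAS1: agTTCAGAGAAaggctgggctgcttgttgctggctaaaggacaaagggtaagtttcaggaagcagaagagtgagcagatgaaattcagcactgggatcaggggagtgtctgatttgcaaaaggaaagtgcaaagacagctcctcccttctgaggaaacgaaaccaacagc
IFIT1: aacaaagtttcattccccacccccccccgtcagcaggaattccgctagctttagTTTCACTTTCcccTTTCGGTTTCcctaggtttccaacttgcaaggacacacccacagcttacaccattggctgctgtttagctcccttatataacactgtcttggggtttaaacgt
IFIT3: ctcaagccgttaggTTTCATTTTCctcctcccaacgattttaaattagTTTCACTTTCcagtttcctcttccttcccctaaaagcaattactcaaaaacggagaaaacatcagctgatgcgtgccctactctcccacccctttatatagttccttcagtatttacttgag
IFITM3: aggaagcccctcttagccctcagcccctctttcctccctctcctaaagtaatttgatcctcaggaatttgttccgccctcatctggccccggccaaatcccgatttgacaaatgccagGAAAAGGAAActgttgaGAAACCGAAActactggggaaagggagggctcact
GBP1: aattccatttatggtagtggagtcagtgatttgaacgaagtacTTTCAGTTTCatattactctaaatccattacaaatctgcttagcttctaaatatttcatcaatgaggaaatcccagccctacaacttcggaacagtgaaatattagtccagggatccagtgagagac
IFIT5: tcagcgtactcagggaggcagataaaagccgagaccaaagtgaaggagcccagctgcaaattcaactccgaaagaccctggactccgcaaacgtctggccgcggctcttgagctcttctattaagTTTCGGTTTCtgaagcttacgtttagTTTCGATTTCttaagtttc
ISG15: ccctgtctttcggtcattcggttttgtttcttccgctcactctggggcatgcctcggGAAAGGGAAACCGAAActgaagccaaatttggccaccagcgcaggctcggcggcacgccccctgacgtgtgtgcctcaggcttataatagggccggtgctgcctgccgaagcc
The stretch of OAS1 holds a GAS match and no exact ISRE core, and each of the other 7 holds 1 or 2 ISRE cores. Near its end the OAS1 stretch has 2 copies of GAAA with 1 base between them. The search required 2 bases there, so it did not count this near match, and OAS1 cannot be said to lack the element. The exact core was present among members that went up, went down or did neither. It lay in 1 of the 2 members with a window that rose, in 4 of the 7 that fell and in 12 of the 17 that did not pass the test.

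Recovered reads came to between 67785956 and 78005035 per library, and the 39 members together held between 0.0864% and 0.0938% of them. The melanocyte lineage gene SOX10 had between 34072 and 41363 normalised counts per library, while the pigment gene TYR had at most 3.93. Of the 8 melanocyte lineage markers tested, 2 fell and 1 rose, beside 13.7% and 16.2% of all genes tested. S100B had a log2 difference of -1.12 (limma adjusted p 9.15e-12), MITF of -0.48 (2.33e-06) and PMEL of 0.55 (0.0289). The list summed to between 45156 and 49411 in vehicle and between 38697 and 43768 in octanoate. Of markers of other cell types, PTPRC (leukocytes) had at most 10.8, the 3 plasmacytoid dendritic cell markers summed to at most 4.91 in any library, and KRT1 and HBA2 were at 0. Others were well counted. The 3 fibroblast markers PDGFRB, DCN and LUM summed to between 1913 and 1977 in vehicle and between 1776 and 1926 in octanoate. None of them passed the test. The leukocyte marker list summed to between 608 and 674 in vehicle and between 733 and 791 in octanoate, nearly all of it from LYZ. Of the 2 leukocyte markers tested, LYZ rose (log2 difference 0.26, limma adjusted p 0.0273) and CD14 did not pass, beside 16.2% of all genes tested that rose. KRT14, a keratinocyte marker, fell from 1110 and 942 to 266 and 218 normalised counts (limma adjusted p 2.40e-13). Of 3 endothelial markers 2 rose, beside 16.2% of all genes tested. PECAM1 went from 121 and 122 to 249 and 221 (limma adjusted p 1.05e-05) and VWF from 65.8 and 63.9 to 89.5 and 95.4 (0.0479). CDH5 did not pass (0.659). The part of these marker genes in the results was not tested. Normalised counts are whole reads divided by 1 factor per library, so they compare a gene between libraries. In bulk RNA, fewer expressing cells and less RNA per cell cannot be told apart.

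Of the 39 members, 3 rose and 12 fell at a limma adjusted p under 0.05. OAS1, OASL and ISG20 rose. IFIT1, IFIT2, IFIT3, GBP1, GBP2, IFITM3, MX2, IRF9, DHX58, DDX58, IRF2 and IFNAR1 fell, by between 0.16 and 0.77 on the log2 scale. The falling share of members was 30.8% and the rising share 7.69%, beside 13.7% and 16.2% of all 20250 genes tested (29.9% changed in either direction). Where the mean was 100 or more, 11 of 31 members fell and 2 rose, against 17.9% and 20.4% of all such genes. The groups did not overlap for 30 of the 39 members (76.9%), against 63.1% of all genes tested. Octanoate lay above in 9 and below in 21, against 32.6% and 30.5% of all genes. The difference was negative for 25 of the 39, and for 49.3% of all genes. The median log2 difference of the members was -0.11, that of all genes tested 0.01. With GC content and exon length trends removed from each library, an alternative chosen after the data were seen, 3 members rose and 18 fell, against 19.3% and 26.3% of 15183 genes. The count of 12 lower members was 6 without vehicle 1 and 7 without octanoate 2, beside 7.53% and 9.0% of all genes. It was 5 with no filter on low counts and 2 without an intensity trend in the variance prior, beside 2.3% and 2.62%. The share of 2.3% includes genes below the count filter, which every member passed, so its base is not like that of the members. The median moved with single libraries, to -0.06 both without vehicle 1 and without octanoate 2.

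Genes were fitted together with limma on log2(normalised count + 1), so that every log2 difference below is octanoate minus vehicle on that scale. The labels do not say whether the 2 libraries of a group came from separate cultures, so p-values cover only the spread between libraries. That spread was drawn mostly from other genes of like abundance, with 21.2 prior degrees of freedom. With no intensity trend the prior held 1.57, and 4 of the 15 member calls remained. Without octanoate 1 or octanoate 2 the prior was infinite, so a gene's own spread was not used. The smallest two-sided p that an exact permutation test allows with 2 libraries per group is 0.333. Members with fewer reads are known less well: the standard error was 0.06 for OAS3, with between 6744 and 7070 counts, and 0.52 for IFI27, with between 6 and 17 reads per library. The plot of member levels shows each library behind these counts.

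**Figure D1:**
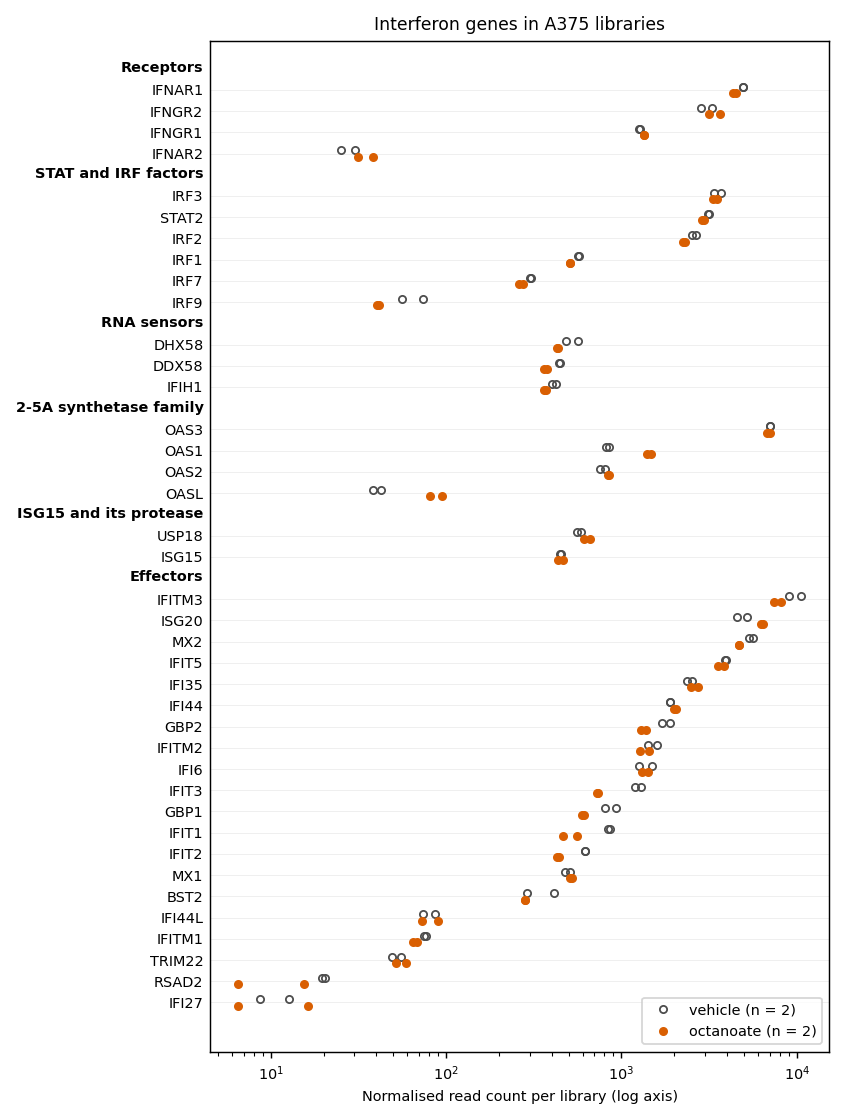
Normalised read count of each of the 39 members (horizontal, log axis) in the 2 vehicle libraries (open circles) and the 2 octanoate libraries (filled circles), ordered by mean within each role. OAS1, OASL and ISG20 lie to the right of vehicle, and IFIT1, IFIT2, IFIT3, GBP1 and GBP2 to the left, with no overlap of the groups.

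Of the 4 receptor chains only IFNAR1 passed the test, as lower. IFNAR1, which forms the type I receptor together with IFNAR2 (chr21:33324477-33359862), had 4961 and 4919 normalised counts in vehicle and 4347 and 4469 in octanoate. Both octanoate libraries lay below both vehicle libraries, a log2 difference of -0.16 (0.0351 as limma adjusted p, SE 0.06). It did not pass the test when any 1 of the 4 libraries was left out (limma adjusted p from 0.0893 to 0.198) or with TMM factors (0.0759). IFNGR2, the second chain of the type II receptor (chr21:33402896-33479348), had 3284 and 2857 counts in vehicle and 3654 and 3170 in octanoate, and the groups overlapped (log2 difference 0.15, SE 0.07, limma adjusted p 0.126). It passed as higher without vehicle 1 (0.25, limma adjusted p 0.0414) and without octanoate 2 (0.25, 0.0150), and was 0.05 without vehicle 2 (0.720) or octanoate 1 (0.737). IFNGR1, the chain that binds the ligand, had a log2 difference of 0.08 (0.424 as limma adjusted p, SE 0.07). IFNAR2 was counted with only 26 to 40 reads per library (log2 difference 0.32, SE 0.29, limma adjusted p 0.455). In GENCODE 29, 44.2% of its exon bases lie in exons of AP000295.1, a gene on the same strand, so its level is uncertain. IFNGR2 overlaps TMEM50B on the other strand over 12.8% of its exon bases.

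All 6 STAT and IRF factors had negative log2 differences, as did 49.3% of all genes tested. Of the 6, 2 passed the test as lower, beside 13.7% of all genes. IRF2, a factor that can repress ISRE-driven genes (chr4:184387713-184474580), went from 2671 and 2532 normalised counts to 2302 and 2248. The groups did not overlap, and the log2 difference was -0.19 (SE 0.06, limma adjusted p 0.0248). IRF9, which binds the ISRE together with STAT2 (chr14:24161053-24166565), went from 73.6 and 56.2 to 40.4 and 41.2 counts. Its log2 difference was -0.64 (SE 0.24, limma adjusted p 0.0413), from 38 to 75 reads per library. For IRF9, 48.4% of the exon bases are shared with AL136295.5 on the same strand in GENCODE 29. Neither gene passed the test without vehicle 1 (limma adjusted p 0.188 for IRF2 and 0.306 for IRF9), without octanoate 1 (0.0606 and 0.107) or without octanoate 2 (0.138 and 0.0940).

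The other 4 factors did not pass. STAT2, the partner of IRF9, had 3169 and 3110 counts in vehicle and 2865 and 2937 in octanoate (log2 difference -0.11, SE 0.06, limma adjusted p 0.170). IRF1, itself induced by interferon gamma, had a log2 difference of -0.17, IRF7, which amplifies type I interferon production, one of -0.19, and IRF3, which carries the signal of the nucleic acid sensors, one of -0.05. Their limma adjusted p-values were 0.173, 0.230 and 0.590. For STAT2, IRF1 and IRF7 both octanoate libraries lay below both vehicle libraries, as for 30.5% of all genes tested, and for IRF3 the groups overlapped. With the GC content and exon length trends removed, IRF1, IRF3, IRF7 and STAT2 passed the test as lower (limma adjusted p from 0.0289 to 0.0479). IRF3 overlaps BCL2L12 and IRF1 overlaps C5orf56 on the other strand, over 19.3% and 22.0% of their exon bases.

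Of the 3 RIG-I-like RNA sensors, 2 fell, beside 13.7% of all genes tested. DDX58, which encodes RIG-I, a sensor of viral RNA ends (chr9:32455705-32526324), had 449 and 440 normalised counts in vehicle and 363 and 377 in octanoate, a log2 difference of -0.26 (0.0474 as limma adjusted p, SE 0.10). DHX58, which encodes LGP2, a regulator of the other sensors (chr17:42101404-42112733), had 562 and 484 in vehicle and 436 and 427 in octanoate, a log2 difference of -0.27 (0.0388 as limma adjusted p, SE 0.10). IFIH1, which encodes MDA5, a sensor of long double-stranded RNA, had 423 and 404 in vehicle and 362 and 372 in octanoate. Its log2 difference of -0.17 (SE 0.10) had a limma adjusted p of 0.211. For each of the 3 genes both octanoate libraries lay below both vehicle libraries, which was so for 30.5% of all genes tested. The calls were close to the threshold. DDX58 did not pass when any 1 library was left out (limma adjusted p from 0.0968 to 0.191), and DHX58 passed only when the one left out was vehicle 2. Without vehicle 1 the log2 difference of DHX58 was -0.17 (limma adjusted p 0.362). With TMM factors the adjusted p was 0.0685 for DDX58 and 0.0502 for DHX58, and with DESeq2 0.139 and 0.0985.

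The oligoadenylate synthetase family held 2 of the 3 members that rose. These enzymes make the second messenger that activates RNase L, except OASL, which has no synthetase activity and instead binds RIG-I. OAS1 (chr12:112906777-112933222) had 845 and 819 normalised counts in vehicle and 1402 and 1464 in octanoate. That is 1.72 times the vehicle level, a log2 difference of 0.78 (1.51e-08 as limma adjusted p, SE 0.07). OASL (chr12:121019111-121039242) had 38.3 and 42.6 counts in vehicle and 95.3 and 81.3 in octanoate, 2.15 times as much (log2 difference 1.10, SE 0.22, limma adjusted p 3.71e-04). It was the only member tested that changed at least 2-fold, and rested on 39 and 44 reads in vehicle and 99 and 75 in octanoate. Both genes passed the test in every alternative run, with log2 differences from 0.75 to 0.82 for OAS1 and from 0.99 to 1.22 for OASL.

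OAS2 and OAS3 lie next to OAS1 on chromosome 12 and did not pass. OAS2 (chr12:112978395-113011723) had 804 and 750 counts in vehicle and 850 and 838 in octanoate (log2 difference 0.12, SE 0.08, limma adjusted p 0.289). OAS3 (chr12:112938352-112973249), the most abundant of the family, had 7070 and 7012 in vehicle and 6744 and 7012 in octanoate (log2 difference -0.03, SE 0.06, limma adjusted p 0.703). As a share of each gene's vehicle mean, the octanoate libraries were at 169% and 176% for OAS1, 109% and 108% for OAS2, and 95.8% and 99.6% for OAS3. The difference between these genes was not itself tested. In GENCODE 29, 92 exon bases of OAS1 overlap the antisense gene AC004551.1.

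The IFIT genes, which bind foreign RNA and block its translation, lie side by side on chromosome 10. Of the 4, 3 fell, beside 13.7% of all genes tested. IFIT3 (chr10:89327894-89340971) had 1289 and 1195 normalised counts in vehicle and 732 and 723 in octanoate, a log2 difference of -0.77 (4.25e-08 as limma adjusted p, SE 0.08). IFIT1 (chr10:89392546-89406486) had 843 and 858 in vehicle and 559 and 464 in octanoate (log2 difference -0.74, SE 0.09, limma adjusted p 1.30e-06). IFIT2 (chr10:89283694-89309276) had 622 and 616 in vehicle and 427 and 442 in octanoate (log2 difference -0.51, SE 0.09, limma adjusted p 1.34e-04). Their octanoate libraries were thus between 54.5% and 71.4% of the vehicle mean, with no overlap of the groups.

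IFIT5 (chr10:89414586-89421001), the most abundant of the 4, had 3924 and 3871 counts in vehicle and 3844 and 3535 in octanoate, or 98.6% and 90.7% of its vehicle mean. The log2 difference was -0.08 (SE 0.06, limma adjusted p 0.358). IFIT2 and IFIT3 passed the test in every alternative run, with values from -0.53 to -0.48 for IFIT2 and from -0.82 to -0.72 for IFIT3. IFIT1 did so in each except a variance prior without an intensity trend, where its adjusted p was 0.0531. In GENCODE 29, 356 exon bases of IFIT2 lie in AL353751.1 on the same strand and 65 in LIPA on the other strand.

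**Figure D2:**
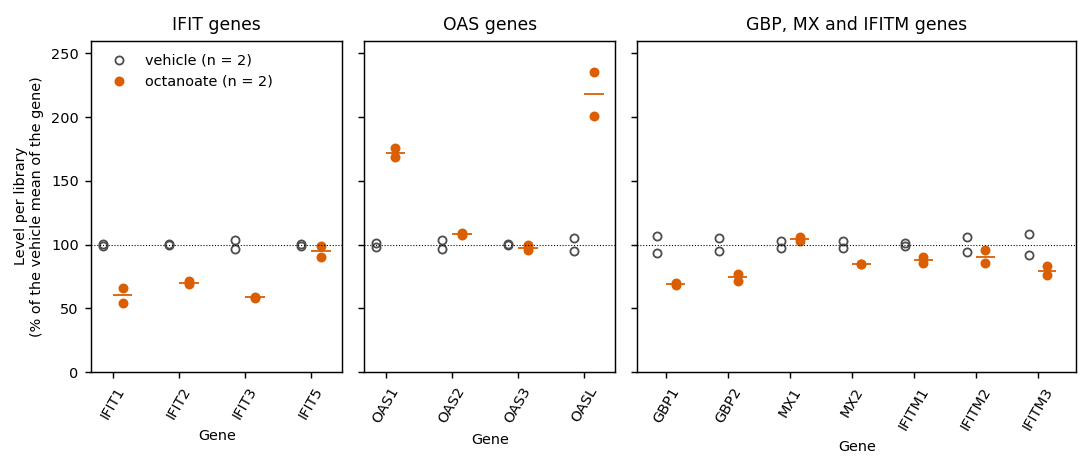
Level in each library as a percentage of the gene's vehicle mean (vertical, from 0) for the IFIT, OAS, GBP, MX and IFITM genes, with vehicle libraries as open circles, octanoate libraries as filled circles and their mean as a short line. IFIT1, IFIT2 and IFIT3 lie between 54.5% and 71.4% under octanoate beside IFIT5 at 98.6% and 90.7%, and OAS1 lies at 169% and 176% beside OAS2 and OAS3 near 100%.

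The GBP and MX families encode large GTPases induced by interferon. GBP1 (chr1:89052319-89065360) had 930 and 809 normalised counts in vehicle and 607 and 596 in octanoate, a log2 difference of -0.53 (5.45e-05 as limma adjusted p, SE 0.09). GBP2 (chr1:89106132-89150456) had 1891 and 1709 in vehicle and 1383 and 1293 in octanoate (log2 difference -0.43, SE 0.07, limma adjusted p 7.57e-05). MX2, an inhibitor of retroviral nuclear import (chr21:41361943-41409390), had 5613 and 5319 in vehicle and 4652 and 4655 in octanoate. Its log2 difference was -0.23 (SE 0.06, limma adjusted p 0.00390), and without vehicle 1 the adjusted p was 0.0621. MX1, an inhibitor of influenza virus (chr21:41420304-41459214), had 505 and 477 in vehicle and 519 and 506 in octanoate, a log2 difference of 0.06 (0.671 as limma adjusted p, SE 0.09). The 4 genes thus held 3 that fell, beside 13.7% of all genes tested, and 1 that did not pass. GBP1 shares 302 bases at 97.4% identity with GBP1P1 and 217 bases at 95.9% with GBP3, and 621 exon bases of GBP2 lie in GBP7, so reads of these copies may be mixed.

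IFITM genes encode small membrane proteins that block virus entry. IFITM3 (chr11:319669-327537) had 10589 and 9010 normalised counts in vehicle and 8146 and 7450 in octanoate, with no overlap of the groups. Its log2 difference was -0.33 (SE 0.07, limma adjusted p 6.75e-04), and -0.21 without vehicle 1 (limma adjusted p 0.0454). IFITM2 had a log2 difference of -0.15 (0.169 as limma adjusted p, SE 0.08) with overlapping groups, and passed with the GC content and exon length trends removed (-0.24, limma adjusted p 0.00434). It was -0.06 without vehicle 1 and likewise without octanoate 2. IFITM1, at 63 to 78 reads per library, was at -0.19 on the log2 scale (SE 0.20, limma adjusted p 0.528). These copies cannot be cleanly separated: IFITM2 and IFITM3 share 543 bases at 95.03% identity, and IFITM1 and IFITM2 share 382 bases at 99.7%. In addition 21.3% of the exon bases of IFITM3 overlap AC136475.5 on the other strand.

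ISG20, an exonuclease that degrades RNA, was the third member that rose. It (chr15:88636153-88656483) had 5183 and 4532 normalised counts in vehicle and 6451 and 6244 in octanoate, 1.31 times as much. The log2 difference was 0.39 (SE 0.06, limma adjusted p 4.79e-05), and the call was lost only without the intensity trend (0.0979).

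The remaining 8 effectors did not pass the test. RSAD2, which encodes viperin, had the most negative log2 difference of all members, -0.92 (SE 0.45, limma adjusted p 0.132), from 20 and 21 reads in vehicle and 16 and 6 in octanoate. It was -0.36 without octanoate 2 (limma adjusted p 0.686), less negative than IFIT3, and -1.48 without octanoate 1 (0.0430), where it passed. BST2, which encodes tetherin, had 411 and 290 normalised counts in vehicle and 281 and 282 in octanoate (log2 difference -0.29, SE 0.13, limma adjusted p 0.0961), so that 1 of its vehicle libraries was close to the octanoate level. The value was -0.04 without vehicle 1 (limma adjusted p 0.869) and -0.55 without vehicle 2 (0.00587), where BST2 passed as lower, and it also passed with the GC content and exon length trends removed (-0.40, 0.0157). Log2 differences of IFI6, IFI27, IFI35, IFI44, IFI44L and TRIM22 lay between -0.02 and 0.10, with limma adjusted p-values from 0.30 to 0.984. IFI27, IFI44L and TRIM22 had at most 94 reads in any library, and changes of the size seen for GBP2 were not detectable in IFI27 at this depth. TRIM22 shares 10.7% of its exon bases with OR56B1 on the same strand.

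**Figure D3:**
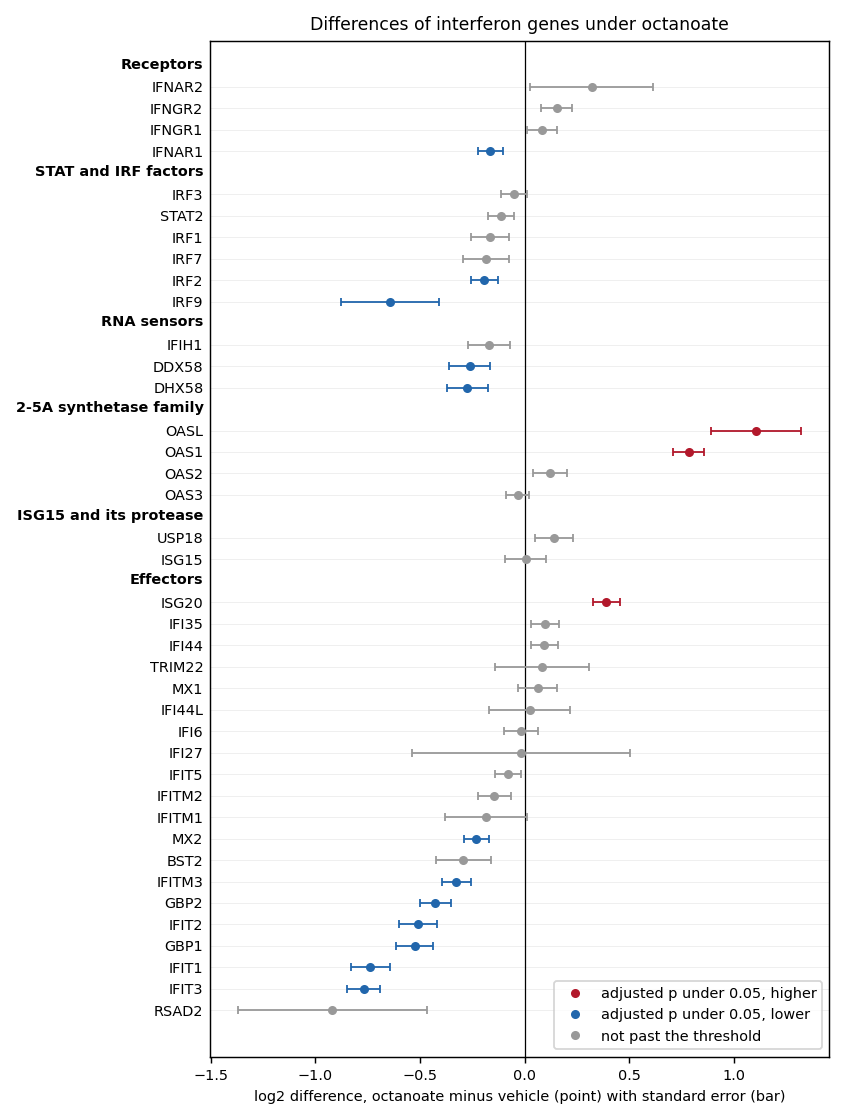
Log2 difference, octanoate minus vehicle (horizontal, points) with its standard error (bars) for the 39 members by role, coloured by the limma test over all genes. The 3 members that rose are OASL, OAS1 and ISG20, the 12 that fell span -0.77 to -0.16, and the wide bars of RSAD2 and IFI27 belong to genes with few reads.

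ISG15 is a ubiquitin-like protein that is attached to other proteins, and USP18 removes it and dampens the type I receptor. ISG15 (chr1:1001138-1014540) had 451 and 446 normalised counts in vehicle and 433 and 466 in octanoate, a log2 difference of 0.00 (0.983 as limma adjusted p, SE 0.10). USP18 (chr22:18149899-18177397) had 589 and 560 in vehicle and 607 and 659 in octanoate (log2 difference 0.14, SE 0.09, limma adjusted p 0.259). USP18 shares 917 bases at 98.7% identity with USP41, so reads of the 2 may be mixed. The enzymes that attach ISG15 were not members and went in different directions. UBA7, the activating enzyme, fell from 392 and 353 counts to 200.2 and 171, a log2 difference of -1.0 (7.00e-07 as limma adjusted p, SE 0.12). HERC5, the ligase, rose from 863 and 820 to 1212 and 1265 (log2 difference 0.56, SE 0.08, limma adjusted p 4.19e-06). UBE2L6, the conjugating enzyme and named after its values were seen, had a log2 difference of 0.00 (limma adjusted p 0.978).

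A further 110 genes of the pathway were listed, of which 77 had a mean of at least 10. Of these 77, 12 rose and 18 fell (15.6% and 23.4%), beside 16.2% and 13.7% of all genes tested, so the rising share was close to that of all genes. The median log2 difference was -0.05. Without vehicle 1, and likewise without vehicle 2, 7 rose, beside 13.7% and 11.5% of all genes. Interferon genes themselves were nearly silent. Of 21 ligand genes only IFNE, an interferon of epithelia encoded on chromosome 9, reached a mean of 10. It had 41.2 and 42.6 normalised counts in vehicle and 101 and 129 in octanoate, a log2 difference of 1.42 (8.73e-06 as limma adjusted p, SE 0.21). IFNB1, named with IFNA1 after the values were seen, had no read in any library. IFNA1 had 1, 3, 6 and 10 reads in vehicle 1, vehicle 2, octanoate 1 and octanoate 2, too few to be tested.

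Among 16 receptors, kinases, factors and inhibitors tested, 3 rose and 3 fell, or 18.75% each way, near the 16.2% and 13.7% of all genes. IFNLR1, the specific chain of the type III interferon receptor, rose from 487 and 418 normalised counts to 789 and 710 (log2 difference 0.73, SE 0.10, limma adjusted p 2.42e-06). IRF5, a factor downstream of Toll-like receptors, rose from 165 and 145 to 242 and 221 (log2 difference 0.58, SE 0.13, limma adjusted p 0.00200). SOCS3, a feedback inhibitor of cytokine receptors, fell from 1994 and 1697 to 1225 and 1074 (log2 difference -0.68, SE 0.08, limma adjusted p 6.17e-07).

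Of 10 further sensors and adaptors tested, 6 fell and 1 rose, beside 13.7% and 16.2% of all genes. The largest fall was that of AIM2, a sensor of cytosolic DNA, from 1131 and 1037 normalised counts to 758 and 672 (log2 difference -0.60, SE 0.08, limma adjusted p 5.76e-06). IFI16, TMEM173, TRIM25 and MAVS are named here after their values were seen. IFI16 and TMEM173 also act on cytosolic DNA, the latter as the adaptor STING. Their log2 differences were -0.28 (limma adjusted p 4.94e-04) and -0.23 (limma adjusted p 0.00916). TRIM25, the ubiquitin ligase of RIG-I and the one that rose, had a log2 difference of 0.22 (limma adjusted p 0.00440), and MAVS, the adaptor of the RNA sensors, one of -0.15 (limma adjusted p 0.0403). Of 50 other induced genes tested, 7 rose and 9 fell (14% and 18%), near the 16.2% and 13.7% of all genes. Besides UBA7 and HERC5, PARP9 fell by 0.43 (SE 0.07, limma adjusted p 2.20e-05) and NMI by 0.38 (limma adjusted p 3.78e-04) on the log2 scale. PARP12 had a log2 difference of 0.25 (limma adjusted p 0.0122), which was 0.13 without vehicle 2 (limma adjusted p 0.282).

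**Figure D4:**
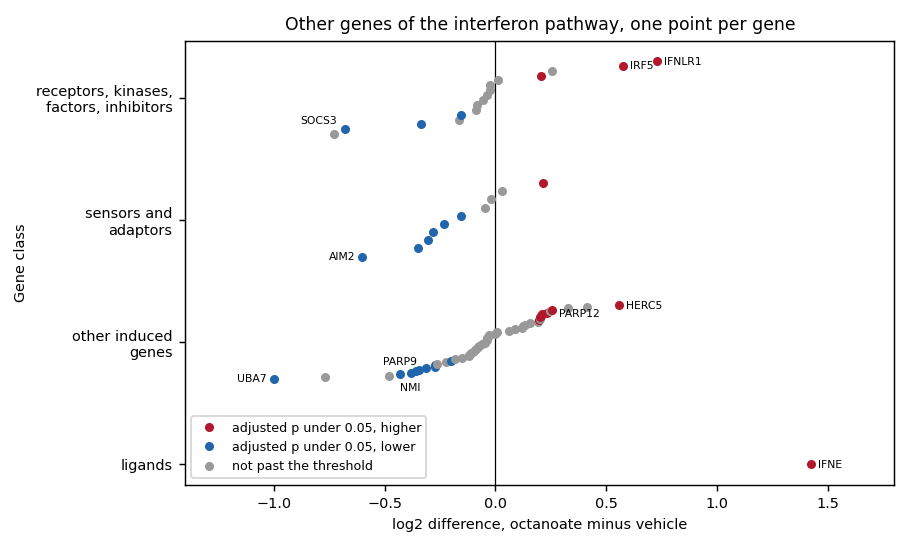
Log2 difference, octanoate minus vehicle (horizontal), of the 77 tested genes of the pathway that are not members, 1 point per gene and grouped by class, with the named genes labelled. Most points lie near 0, IFNE and IFNLR1 stand to the right, and 6 of the 10 sensors and adaptors are lower, beside 13.7% of all genes.

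Levels were compared between genes per kilobase of merged exons in GENCODE 29. In vehicle, 28 of the 39 members had more than 100 normalised counts per kilobase. IFITM3 was highest at 7270, followed by IFI6 at 1596 and IFI35 at 1240 per kilobase. The lowest were IFI27 at 2.59, RSAD2 at 4.13 and IFNAR2 at 6.03 per kilobase. For IFNAR2, 44.2% of the exon bases lie in exons of AP000295.1 on the same strand, so its place in the order is uncertain. Of the 38 neighbouring pairs in this order, 12 had overlapping vehicle values, among them IFNGR2 and IFITM2, IFITM2 and IFIT5, IRF3 and IFI44, and GBP1 and OAS1. The 3 genes that rose lay in different parts of the order, with ISG20 at 660, OAS1 at 168 and OASL at 11.5 per kilobase in vehicle, and 862, 290 and 25.1 per kilobase in octanoate. IFIT3 went from 470 to 275 and IFIT1 from 184 to 111 per kilobase between the group means.

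The authors' deposited table, which lists 33533 genes, has 11 of the 39 members at an adjusted p under 0.05. Beside these, 12.9% of all its genes pass. Of the 11, the authors' deposited table gives OAS1, OASL and ISG20 as higher and 8 as lower, against 6.89% and 6.01% of its genes. The shares of its genes include many below the count filter used here, which every member passed. The bases are therefore not alike, and an excess or lack among members cannot be read from these shares. All 11 were among the 15 that passed with limma. The 4 that passed with limma only were IRF2, IRF9, DDX58 and DHX58, at adjusted p-values of 0.0512, 0.251, 0.213 and 0.166 in the authors' deposited table.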

How the data were processed

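RNA from 2 vehicle and 2 octanoate libraries was sequenced. The submitters' processing notes name bcl2fastq 2.17, Trim Galore, STAR 2.4, Picard, HTSeq 0.9.1, DESeq2 and the build hg38, with no role or order; annotation release and strand setting are not given in the sources used here. The deposited normalised counts (a signal per gene) are counts divided by 1 factor per library, since 100% of the values came out as whole reads (tolerance 1e-06). The authors' deposited comparison gives log2 fold changes, a Wald score, and raw and adjusted p-values per gene.

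Genes with a mean of at least 10 were log2-transformed after adding 1 and fitted with limma 3.58.1 (R 4.3.3), using a trended variance prior and Benjamini-Hochberg adjustment over 20250 genes (two-sided, threshold 0.05). Recovered reads were also tested with edgeR 4.0.16 and DESeq2 1.42.0. The procedure was also run on simulated data. The outcome is not given here and was not used to judge the calls. Coordinates, exon lengths and overlaps come from GENCODE 29 (GRCh38), which held 75.0% of the tested names and all 39 members. Shared sequence means at least 95% identity over 100 bases.

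The members and lists were chosen with earlier results of these data known. Values in every library are given for each member past the threshold and for the most abundant members of roles with fewer than 2 of these. Of the other pathway genes, the 5 largest called differences in each direction are named. Alternatives covered the pseudocount, filter, scaling, variance prior, replicate block, test and each library left out. Two-sided marker tests use the same fit.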

Additional observations from a re-analysis of the deposited data

How the results depend on the processing

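With no filter on low counts, 5 members were lower, 5 other pathway genes were higher and 9 lower, and 1597 of all genes were higher and 998 lower. With no intensity trend in limma's variance prior, 2 members were lower, 2 other pathway genes were higher and 1 lower, and 1095 of all genes were higher and 530 lower. Leaving out 1 library at a time gave 3 to 4 members higher and 6 to 11 lower, 7 to 9 other pathway genes higher and 12 to 17 lower, and 2322 to 2770 of all genes higher and 1525 to 2274 lower; the lone library left in a group was assumed to vary like the other group. The median of the members ran from -0.17 to -0.06 over these. Without octanoate 1 or octanoate 2 the variance prior was infinite. The spread assumed for both groups there came from genes of like abundance, and the gene's own vehicle libraries did not enter it. With the replicate number as a block, 4 members were higher and 15 lower, and BST2, IFITM2, IFNGR2 and STAT2 joined the calls. Calls also grew over all genes, to 21.3% higher and 20.1% lower, from 16.2% and 13.7%. Same-numbered libraries shared deviations only weakly (r = 0.126 over 20250 genes). There were only 2 pairs, and the labels do not say that numbers pair libraries. OAS1, OASL, IFIT2 and IFIT3 passed in each of the 16 alternatives run, and ISG20, IFIT1, GBP1 and GBP2 in each except the one with no intensity trend. The sign turned for 6 members that did not pass the test there or in the reported fit. For IFI27 the log2 difference was 0.0061 with a pseudocount of 5 and 0.12 with edgeR, and for ISG15 -0.0034 with equal column totals, -0.0029 with DESeq2 and -0.12 once trends on GC content and length were removed. With 1 library left out, the log2 difference ran from -0.62 to 0.59 for IFI27, -0.049 to 0.056 for ISG15, -0.14 to 0.11 for IFI6, -0.13 to 0.18 for IFI44L, -0.0026 to 0.17 for TRIM22 and -0.12 to 0.012 for IRF3. The cause was not tested. With 2 libraries a group, and under 30 reads a library for IFI27 and RSAD2, depth and replication limit what could be detected.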
